A study of Drosophila melanogaster with 12 samples.

Results

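The genes described here encode the subunits of the proteasome. All features were taken whose FlyBase symbol begins with Prosalpha or Prosbeta, or is Rpn or Rpt followed by a digit, including features in which the read counting had merged such a gene with another. The rule found 52 of the 14413 counted features, which stand for 48 genes. Of these genes, 32 are general subunits and 16 are paralogs that carry T or R in the name, and the paralogs are described apart. The general subunits take 36 features, of which 32 hold a single gene and 4 are merged with a second gene.

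The proteasome degrades proteins that carry chains of ubiquitin. Its 20S core particle is a barrel of stacked rings, in which the alpha rings gate the entrance and the beta rings hold the proteolytic sites. The 19S regulatory particle caps this barrel: the ring of Rpt ATPases in its base unfolds the substrate, and the Rpn subunits of its base and lid bind the substrate and take off its ubiquitin. In flies the Cap-n-collar transcription factor (cnc) is known to drive subunit genes together, and the paralogs described below are known from the male germ line.

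RNA of whole flies of the iso31 strain was sequenced in 4 groups of 3 samples, CCM and control flies at week 3 and CCM and control flies at week 2. In CCM (chronic circadian misalignment) flies the light was on for 14 h and off for 14 h, which made days of 28 h, whereas control flies lived in days of 24 h, lit for 12 h. All groups shared the strain and a minimal diet of sucrose and agar, and RNA was taken in the first 3 h after lights-on. Each sample pooled 10 male and 10 female flies, so that a value is a mean over both sexes and all tissues. Flies had been housed singly in tubes, and the pools of a group are described as biological replicates. The week is the length of exposure to the schedule, which began soon after eclosion, so that age and exposure cannot be told apart. In the lifespan experiment of the study, flies died between these weeks, more of them under CCM. Pools of week 3 therefore hold survivors, and the part of survival was not tested. The comparisons ask how subunit transcripts differed between week 2 and week 3 under each schedule, and between the schedules at each week.

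Between 17842804 and 23687266 reads were counted per sample, and CCM flies had more reads than control flies in every sample of week 3 (21506910 to 21925648 against 17842804 to 19162218). Values are counts per 1000000 (CPM) after scaling by library size, and the limit that a count of 0 allows, 3 counts, came to at most 0.184 CPM (counting error only). A change is a log2 fold change (log2FC) from edgeR, whose quasi-likelihood test was adjusted by Benjamini-Hochberg over all features tested. The standard error (SE) of a change, over 3 samples a group, was computed apart from that fit, from log2 CPM. The words "rose" and "fell" are used where the adjusted p was under 0.1, the threshold of the study. Of the 36 general features, 33 passed the filter on low counts in every comparison. The other features were the merged features of Rpt6, Rpt2 and Rpn9 with a neighbour on the opposite strand, which held at most 9, 2 and 1 counts in a sample.

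Transcripts of the core were the more abundant ones, in levels not adjusted for the length trend given below. Per kb of exon, the 13 highest of 32 general features in the mean over all samples belonged to the 20S particle, and Prosalpha6 was the exception among its subunits at rank 23. The median over the 32 features was 166 CPM per kb in CCM flies at week 3, 145 in control flies at week 3, 105 in CCM flies at week 2 and 114 in control flies at week 2. The feature that merges Prosalpha1 with its paralog Prosalpha1R stood highest, with 495 ± 35.7 CPM per kb in CCM flies and 418 ± 29.9 in control flies at week 3 (SD, n = 3 each), and it held 5236 to 9942 counts a sample against 14 to 28 assigned to Prosalpha1 alone. These genes lie next to each other on 2R (dm6, 7827303 to 7828678 and 7830413 to 7831771), and their reads cannot be split. The merged level per kb divides reads of both genes by their mean length, so it may lie above that of either gene. Neighbours in the order were often within their spread, as were Prosbeta7 with 284 ± 23.6 and Prosbeta5 with 281 ± 28.0 CPM per kb in CCM flies at week 3 (SD, n = 3 each).

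At the low end stood Rpn2, Rpt5 and Rpn5. The lid subunit Rpn5 had 30.3 ± 4.21 CPM per kb in CCM flies and 28.2 ± 5.94 in control flies at week 3, against 46.6 ± 7.48 in CCM flies and 46.0 ± 7.96 in control flies at week 2 (SD, n = 3 each). The ratio of the highest to the lowest feature was 16.3 in CCM flies and 14.8 in control flies at week 3, against 5.97 in CCM flies and 6.21 in control flies at week 2. The highest feature was the merged one of Prosalpha1 and Prosalpha1R, so these ratios may be too wide for single genes. Prosalpha7, next in the order, had 320 CPM per kb in CCM flies and 265 in control flies at week 3, against 176 and 197 at week 2. In these levels, which are not adjusted for the length trend, the range was thus wider at week 3 at both ends. Core subunits were higher, and at the low end Rpn5 alone was clearly lower.

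**Figure D1:**
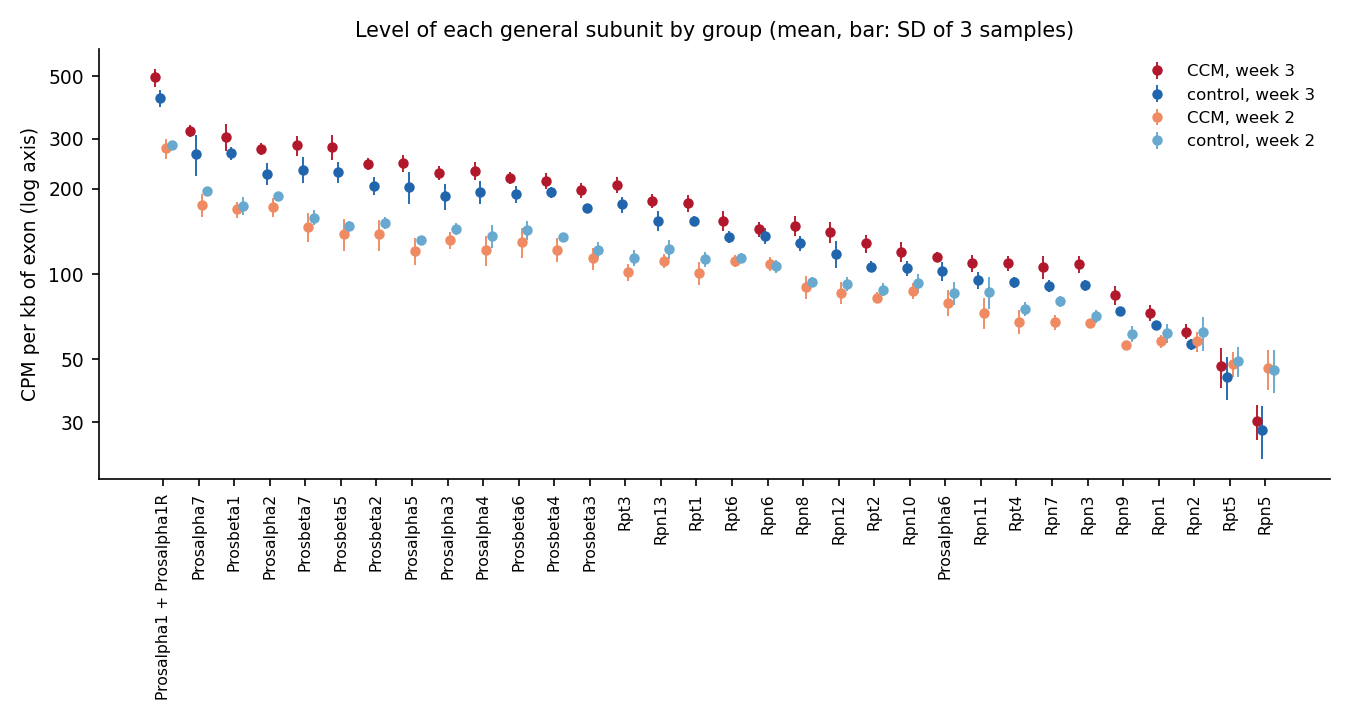
Level of each of the 32 general features in CPM per kb of exon (log axis), ordered by the mean over all samples. Points are group means and bars the SD of 3 samples. The core subunits fill the left side, and Rpn5, at the far right, is the feature whose week 3 means (30.3 in CCM flies and 28.2 in control flies) lie clearly under its week 2 means (46.6 and 46.0).

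Between week 2 and week 3 most general subunits rose under both schedules. In CCM flies 29 of the 33 features tested rose and 1 fell, with a median log2FC of 0.65 (a fold of 1.57). In control flies 20 rose and 1 fell, with a median log2FC of 0.36 (a fold of 1.28). Over all features tested, 26.4% rose and 29.6% fell in CCM flies, 14% rose and 17.3% fell in control flies, and the median log2FC was -0.03 under each schedule. The feature that fell was Rpn5 both times. In RNA of whole flies, a change in the number of cells of a type and a change of RNA per cell cannot be told apart.

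Summed over the 36 general features, transcripts reached 7209, 6657 and 7502 CPM in CCM flies at week 3, against 4688, 4469 and 4055 CPM at week 2, a ratio of means of 1.62. In control flies the sums were 5866, 5980 and 6476 CPM at week 3, against 4498, 4769 and 4957 CPM at week 2, a ratio of 1.29. Every sum at week 3 lay above every sum at week 2. The week 3 samples of a feature lay wholly above those of week 2 for 29 of 33 features in CCM flies and 26 of 33 in control flies, where 32% and 22.1% of all features did so, and wholly below for Rpn5 alone under each schedule, as for 30.4% of all features in CCM flies and 21.6% in control flies.

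All 20 features that rose in control flies also rose in CCM flies, which is 100% of the first list and 69.0% of the second. The other 9 passed the threshold in CCM flies alone: Prosalpha2, Prosalpha6, Rpn1, Rpn7, Rpn9, Rpn10, Rpn11, Rpt2 and Rpt6. Their difference between the schedules was tested as the interaction of schedule and week, and no feature passed there, as given below.

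The count in control flies changed with the sample left out. There were 6 features that rose and 0 that fell without replicate A of week 2, and 8 and 0 without replicate C of week 3. Without replicate B of week 3 there were 11 and 0, and without replicate A of week 3 there were 11 and 1. These fits had fewer samples, and the share of all features that passed in them is not given here. Prosbeta1, Prosbeta4, Prosbeta5, Prosalpha5, Rpt3 and the merged Prosalpha1 feature, 6 in all, rose whichever sample was left out. In CCM flies 28 features rose and Rpn5 fell whichever sample was left out, and Rpn1 did not pass without replicate C of week 2.

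**Figure D2:**
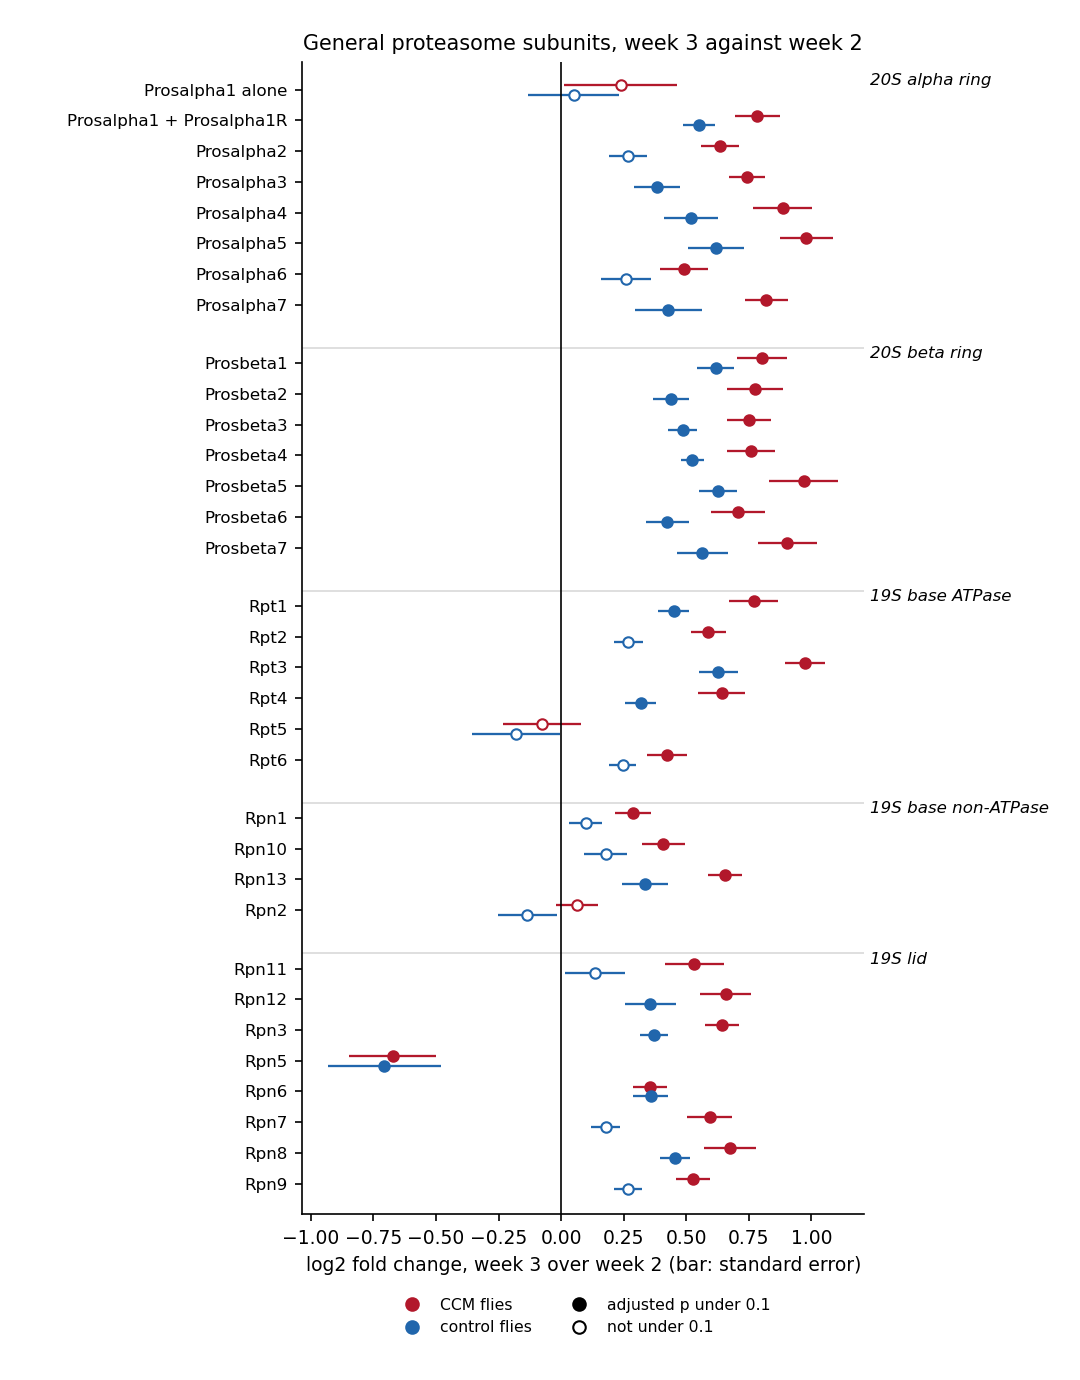
Log2FC of week 3 over week 2 for each general feature (points, with SE as bars), CCM flies in red above control flies in blue, filled where the adjusted p was under 0.1. Of 33 features, 29 are filled to the right of 0 in CCM flies and 20 in control flies, and Rpn5 is the filled point to the left in each.

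All 7 beta subunits rose in CCM flies, by a log2FC of 0.71 to 0.97 (median 0.77), and all 7 rose in control flies, by 0.42 to 0.63 (median 0.52). With offsets for gene length, described below, 7 rose in CCM flies (median 0.58) and 3 in control flies (median 0.31). The 3 catalytic subunits were examined in each sample.

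Prosbeta1 (dm6, 2R, 16013805 to 16014787), which carries the caspase-like activity, had 252, 238 and 291 CPM in CCM flies at week 3, against 155, 138 and 139 CPM at week 2. Control flies had 216, 229 and 239 CPM at week 3, against 141, 161 and 144 CPM at week 2. No week 3 sample overlapped a week 2 sample. The log2FC was 0.80 (SE 0.10, edgeR adjusted p = 0.0012) in CCM flies and 0.62 (SE 0.07, edgeR adjusted p = 0.027) in control flies.

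Prosbeta2 (dm6, 3L, 14999951 to 15001319), which carries the trypsin-like activity, had 247, 244 and 268 CPM in CCM flies at week 3, against 163, 138 and 128 CPM at week 2. Its values in control flies were 196, 225 and 216 CPM at week 3, against 152, 165 and 152 CPM at week 2. The weeks did not overlap under either schedule. It rose by a log2FC of 0.77 (SE 0.11, edgeR adjusted p = 0.00155) in CCM flies and of 0.44 (SE 0.07, edgeR adjusted p = 0.0386) in control flies, where the call was lost without replicate A of week 2 (0.42), replicate B of week 3 (0.39) or replicate C of week 3 (0.43). Reck overlaps 82 of its exonic bases on the opposite strand, and the strand setting of the counting is not given in the sources used here.

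Prosbeta5 (dm6, 2R, 10819978 to 10821178), which carries the chymotrypsin-like activity, had 339, 284 and 339 CPM in CCM flies at week 3, against 176, 163 and 136 CPM at week 2. The control flies had 249, 247 and 286 CPM at week 3, against 162, 174 and 170 CPM at week 2. Every week 3 sample lay above every week 2 sample. The log2FC was 0.97 (SE 0.14, edgeR adjusted p = 0.0013) in CCM flies and 0.63 (SE 0.08, edgeR adjusted p = 0.027) in control flies. Of its exonic bases, 81 are shared with Lsm10 on the opposite strand, and such overlaps exist for 13 of the 32 general genes, of 1 to 264 exonic bases each.

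The alpha ring, which opens and closes the way into the barrel, rose in 7 of 8 features in CCM flies (median log2FC 0.76) and in 5 of 8 in control flies (median 0.41). The 1 that passed nowhere was Prosalpha1 counted alone, whose few counts gave a log2FC of 0.24 (SE 0.23) in CCM flies and 0.05 (SE 0.18) in control flies.

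Prosalpha5 (dm6, 2R, 17412767 to 17413769) had the largest log2FC of all general features in CCM flies. It had 242, 215 and 243 CPM in CCM flies at week 3, against 128, 111 and 104 CPM at week 2. For control flies the values were 166, 194 and 216 CPM at week 3, against 123, 122 and 130 CPM at week 2. The weeks stood apart under each schedule. It rose by a log2FC of 0.98 (SE 0.11, edgeR adjusted p = 0.00105) in CCM flies and of 0.62 (SE 0.11, edgeR adjusted p = 0.0271) in control flies.

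Prosalpha7 (dm6, 2R, 9846636 to 9847836), the second most abundant feature per kb, had 304, 305 and 330 CPM in CCM flies at week 3, against 185, 174 and 154 CPM at week 2. In control flies there were 226, 244 and 307 CPM at week 3, against 192, 188 and 197 CPM at week 2. The control values at week 3 spread the most, with replicate C at the level of CCM flies. The log2FC was 0.82 (SE 0.09, edgeR adjusted p = 0.00117) in CCM flies and 0.43 (SE 0.13, edgeR adjusted p = 0.0649) in control flies, where the call was lost whichever sample was left out.

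Among the Rpt ATPases of the base, 5 of 6 rose in CCM flies (median log2FC 0.61) and 3 of 6 in control flies (median 0.29). Rpt3 (dm6, X, 11125101 to 11126785) led them, with 324, 299 and 339 CPM in CCM flies at week 3, against 169, 159 and 146 CPM at week 2. Control samples had 254, 279 and 288 CPM at week 3, against 165, 187 and 181 CPM at week 2. Week 3 lay above week 2 in every sample. It rose by a log2FC of 0.97 (SE 0.08, edgeR adjusted p = 0.00101) in CCM flies, the smallest adjusted p of the subunits, and of 0.63 (SE 0.08, edgeR adjusted p = 0.027) in control flies.

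Rpt5 (dm6, 3R, 23752876 to 23754623), another ATPase of the same ring, did not pass. It had 89.3, 64.7 and 77.0 CPM in CCM flies at week 3, against 72.3, 87.4 and 75.3 CPM at week 2. In the control group it reached 81.7, 57.7 and 72.4 CPM at week 3, against 76.1, 72.9 and 91.1 CPM at week 2. The weeks overlapped under both schedules. The log2FC was -0.08 (SE 0.16, edgeR adjusted p = 0.667) in CCM flies, with its sign turned without replicate B of week 2 (0.03) or replicate B of week 3 (0.09), and -0.18 (SE 0.18, edgeR adjusted p = 0.418) in control flies.

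Per kb of exon, the ratio of Rpt5 to the median of the other 5 Rpt subunits was 0.347, 0.284 and 0.288 in CCM flies at week 3, against 0.410, 0.526 and 0.512 at week 2. In control flies this ratio was 0.359, 0.278 and 0.323 at week 3, against 0.442, 0.392 and 0.481 at week 2. The ratios were lower at week 3 and did not overlap between the weeks under either schedule. As Rpt5 was singled out after its values were seen, because it did not rise with the others, the ratios are a description.

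Without offsets for gene length the remaining base subunits moved least. There 3 of 4 rose in CCM flies (median log2FC 0.35) and 1 of 4 in control flies (median 0.14). With the length offsets 4 of 4 rose in CCM flies, with a median of 0.425 against 0.433 in the lid. In control flies 0 of 4 passed with the offsets (median 0.14). In the fits without offsets Rpn13, a ubiquitin receptor, rose under both schedules, by 0.65 (SE 0.07) in CCM flies and 0.33 (SE 0.09) in control flies. Rpn10, the other ubiquitin receptor of this list besides Rpn1, rose by 0.41 (SE 0.09) in CCM flies and had a log2FC of 0.18 (SE 0.08) in control flies, which did not pass. Rpn1, a scaffold that also binds ubiquitin, rose by 0.29 (SE 0.07, edgeR adjusted p = 0.0461) in CCM flies and had 0.10 (SE 0.07) in control flies.

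Rpn2 (dm6, 3R, 29153524 to 29157255), the large scaffold of the base and the longest general gene with 3412 exonic bases, did not pass. It had 229, 207 and 205 CPM in CCM flies at week 3, against 189, 216 and 187 CPM at week 2. Control pools had 203, 190 and 185 CPM at week 3, against 199, 192 and 246 CPM at week 2. The weeks overlapped under both schedules. The log2FC was 0.06 (SE 0.08, edgeR adjusted p = 0.639) in CCM flies and -0.14 (SE 0.12, edgeR adjusted p = 0.449) in control flies, and with offsets for gene length it was 0.36 (edgeR adjusted p = 0.0201) in CCM flies and turned to 0.06 in control flies.

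In the lid, 7 of 8 features rose and Rpn5 fell in CCM flies (median log2FC 0.56), while 4 rose and Rpn5 fell in control flies (median 0.31). Rpn11, the metalloprotease that cuts the ubiquitin chain off the substrate, had 126, 128 and 142 CPM in CCM flies at week 3, against 97.2, 91.4 and 76.0 CPM at week 2, and rose by a log2FC of 0.53 (SE 0.12, edgeR adjusted p = 0.00723). Under the control schedule it had 106, 116 and 122 CPM at week 3, against 97.7, 96.1 and 120 CPM at week 2, which overlapped, and its log2FC of 0.14 (SE 0.12) did not pass. Its partner Rpn8 rose under both schedules, by 0.67 (SE 0.10) in CCM flies and 0.46 (SE 0.06) in control flies. Rpn6, which braces the lid against the core, rose by 0.36 under each schedule (SE 0.07 each).

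Rpn5 (dm6, 3R, 5789493 to 5791569), a structural subunit of the lid with no exonic overlap with another gene, had 65.5, 49.5 and 57.3 CPM in CCM flies at week 3, against 80.9, 105 and 79.5 CPM at week 2. It had, in control flies, 64.3, 41.8 and 54.3 CPM at week 3, against 80.3, 77.1 and 105 CPM at week 2. The weeks did not overlap under either schedule, while the schedules overlapped at each week.

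Rpn5 fell by 0.67 on the log2 scale (SE 0.17, edgeR adjusted p = 0.00931) in CCM flies, and passed whichever sample was left out. In control flies it fell by 0.71 (SE 0.23, edgeR adjusted p = 0.0425), and the adjusted p was 0.1 or more without replicate A of week 2 (-0.76), replicate B of week 3 (-0.56) or replicate C of week 3 (-0.71). With offsets for gene length the log2FC in control flies was -0.76 (edgeR adjusted p = 0.0353).

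Set against the rest of the lid per kb of exon, the ratio of Rpn5 to the median of the other 7 lid subunits was 0.297, 0.246 and 0.257 in CCM flies at week 3, against 0.530, 0.730 and 0.655 at week 2. In control flies it was 0.355, 0.230 and 0.283 at week 3, against 0.523, 0.493 and 0.564 at week 2. The highest ratio at week 3 lay under the lowest at week 2. As this member was singled out because it moved against the others, the ratios are a description.

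**Figure D3:**
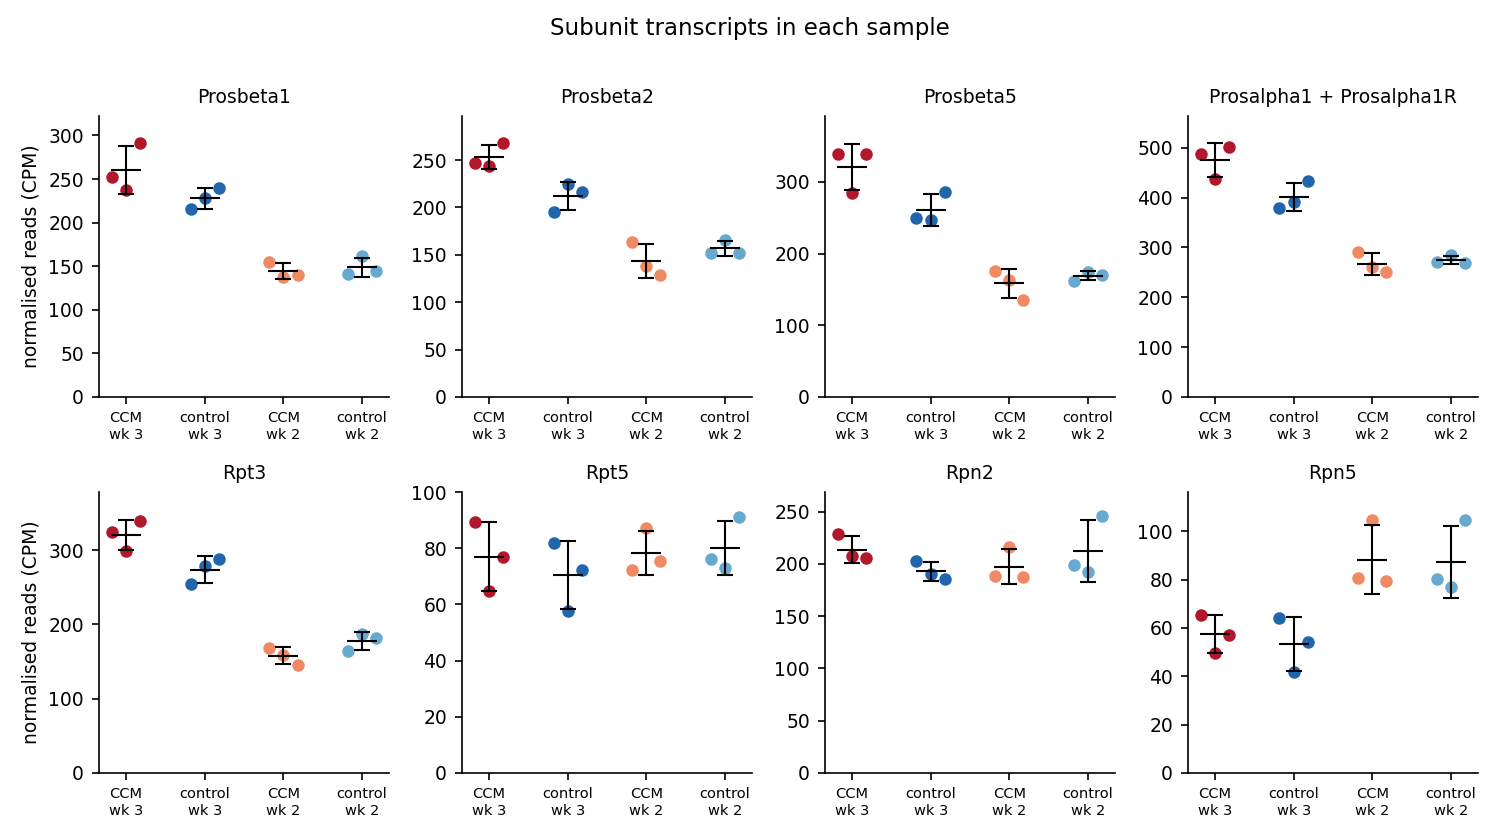
Normalised reads (CPM) of 8 general features in each of the 12 samples, with the group mean and SD (n = 3). Prosbeta1, Prosbeta2, Prosbeta5, the merged Prosalpha1 feature and Rpt3 stand higher at week 3 than at week 2, Rpt5 and Rpn2 overlap between the weeks, and Rpn5 is lower at week 3, with 41.8 to 65.5 CPM against 77.1 to 105 CPM.

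Several measures moved with the week in the same samples. The log2FC ran against exonic length, with a correlation across genes of -0.50 in CCM flies (12130 features) and -0.43 in control flies (11982 features), and of -0.54 and -0.52 over the 33 general features; genes are not independent replicates. General subunit genes are short, with a median of 1215 exonic bases against 1901 in CCM flies and 1911 in control flies for all features tested. With offsets for gene length the general features kept a median log2FC of 0.51 in CCM flies, where 30 rose and 1 fell (26.1% and 23.8% of all features), and of 0.22 in control flies, where 10 rose and 1 fell (13.2% and 13.9% of all features). In control flies these were, beside the 3 beta subunits, 2 of 8 alpha ring features, 2 of 6 ATPases, 0 of 4 other base subunits and 3 of 8 lid features, with Rpn5 as the one that fell.

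Marker lists of other cell types moved as well. The yolk protein genes, 3 of 3, fell under both schedules, with sums of 1584 to 4097 CPM in CCM flies and 1943 to 3073 CPM in control flies at week 3, against 6235 to 9167 CPM in CCM flies and 5217 to 6907 CPM in control flies at week 2. Of 3 ovary markers tested, 3 fell in CCM flies and 2 in control flies, with sums of 36.3 to 59.3 CPM and 58.6 to 112 CPM at week 3, against 167 to 265 CPM and 192 to 468 CPM at week 2, and the eggshell genes Cp36 and Cp16 stayed at or under 0.371 and 0.184 CPM in every sample.

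Of the eye markers, 2 of 3 fell in CCM flies and 3 of 3 in control flies, with sums of 993 to 2405 CPM and 1345 to 1744 CPM at week 3, against 1912 to 3492 CPM and 2650 to 3018 CPM at week 2. The nervous system markers, 4 of 4, fell in CCM flies and 0 of 4 passed in control flies, with sums of 88.8 to 96.0 CPM and 104 to 152 CPM at week 3, against 143 to 239 CPM and 123 to 209 CPM at week 2, although elav among them had a log2FC of -0.78 in CCM flies that turned to 0.60 with the length offsets (edgeR adjusted p = 0.00285). Gut markers rose in 2 of 4 in CCM flies (0 of 4 with the length offsets) and 0 of 4 in control flies, with sums of 2367 to 3148 CPM and 2350 to 2764 CPM at week 3, against 1323 to 2405 CPM and 1854 to 2333 CPM at week 2. Of 3 muscle markers, 1 rose and 1 fell under each schedule (1 and 0 with the length offsets), and male accessory gland markers fell in 1 of 4 in CCM flies and rose in 2 of 4 in control flies. The part of length, of cell types and of tissues in the subunit results was not tested.

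At week 3 the general subunits had higher means in CCM than in control flies, but 0 of the 33 features passed the test, where 0% of all features rose and 0.0164% fell. All 33 log2FC were positive (49.9% of all features), with a median of 0.21 and a range of 0.08 to 0.30, and all 33 stayed positive with the length offsets, with a median of 0.16. At an unadjusted p under 0.05 there were 16 of 33 (12% of all features). DESeq2 called 0 of the 33, while over all features it called 107 higher and 247 lower in CCM flies. In 22 of 33 features the CCM samples lay wholly above the control samples, as in 6.2% of all features. The summed level was 7122 ± 429 CPM in CCM flies and 6107 ± 324 CPM in control flies (SD, n = 3 each), a ratio of 1.17.

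Samples with the same replicate letter deviated together at week 3. The sources used here do not say what same-lettered samples share, so the pairing rests on these same counts. With the letter as a block 9 of the 33 features passed, all higher in CCM flies, against 3.08% of all features. These were Prosalpha2, Prosalpha3, the merged Prosalpha1 feature, Prosbeta2, Prosbeta5, Prosbeta7, Rpt2, Rpn3 and Rpn13. With the block and the length offsets together 0 of the 33 passed, while over all features 283 were higher and 281 lower in CCM flies.

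The 3 smallest p-values at week 3 belonged to Rpt2, Prosalpha2 and Prosalpha3. Rpt2, an ATPase of the base, had 207, 194 and 225 CPM in CCM flies, against 169, 167 and 181 CPM in control flies. Its lowest CCM sample lay above its highest control sample. The log2FC was 0.27 (SE 0.07) with an edgeR adjusted p of 0.283, or 0.0658 with the replicate block, and 116 of its exonic bases are shared with a gene on the opposite strand.

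Prosalpha2 had 254, 242 and 267 CPM in CCM flies, against 202, 193 and 229 CPM in control flies. Prosalpha3 had 229, 208 and 230 CPM in CCM flies, against 168, 177 and 204 CPM in control flies. The groups did not overlap for either of these alpha ring subunits. Their log2FC were 0.29 (SE 0.08, edgeR adjusted p = 0.294, blocked 0.0632) for Prosalpha2 and 0.28 (SE 0.10, edgeR adjusted p = 0.328, blocked 0.0913) for Prosalpha3.

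Of the catalytic subunits at week 3, Prosbeta2 did not overlap between CCM flies (244 to 268 CPM) and control flies (196 to 225 CPM), with a log2FC of 0.25 (SE 0.07, edgeR adjusted p = 0.332, blocked 0.0947). Prosbeta5 overlapped by 1 sample, with a log2FC of 0.30 (SE 0.11, edgeR adjusted p = 0.33, blocked 0.0734). Prosbeta1 overlapped as well and had the smallest difference of the 3, a log2FC of 0.19 (SE 0.10, edgeR adjusted p = 0.519, blocked 0.179). Rpn5 and Rpt5 had log2FC of 0.10 (SE 0.21) and 0.12 (SE 0.20), within their spread.

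At week 2 the means stood the other way, and 0 of the 33 features passed (0% of all features), with 0 at an unadjusted p under 0.05 (5.67% of all features). DESeq2 called 0 of the 33, and 1 higher and 6 lower over all features. The log2FC was negative in 31 of 33 features (46.3% of all features), with a median of -0.10 over the general features and 0.02 over all features. The summed level was 4404 ± 321 CPM in CCM flies and 4741 ± 230 CPM in control flies (SD, n = 3 each), a ratio of 0.929. CCM samples lay wholly under control samples for Rpn3, Rpn7, Rpn9 and Prosalpha7, 4 of 33 features (7.66% of all features), and above them for 0 (5.62%).

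Rpn7, a lid subunit, was the feature nearest to the threshold at week 2. It had 100, 93.9 and 88.6 CPM in CCM flies, against 106, 115 and 115 CPM in control flies, with no overlap. The log2FC was -0.24 (SE 0.07) with an edgeR adjusted p of 0.712. Rpn11 had the same log2FC, -0.24 (SE 0.15, edgeR adjusted p = 0.712), with overlapping samples, and Rpt3 followed with -0.16 (SE 0.08, edgeR adjusted p = 0.713). The catalytic subunits differed by less than their spread or near it, with -0.04 (SE 0.08) for Prosbeta1, -0.12 (SE 0.11) for Prosbeta2 and -0.09 (SE 0.11) for Prosbeta5.

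**Figure D4:**
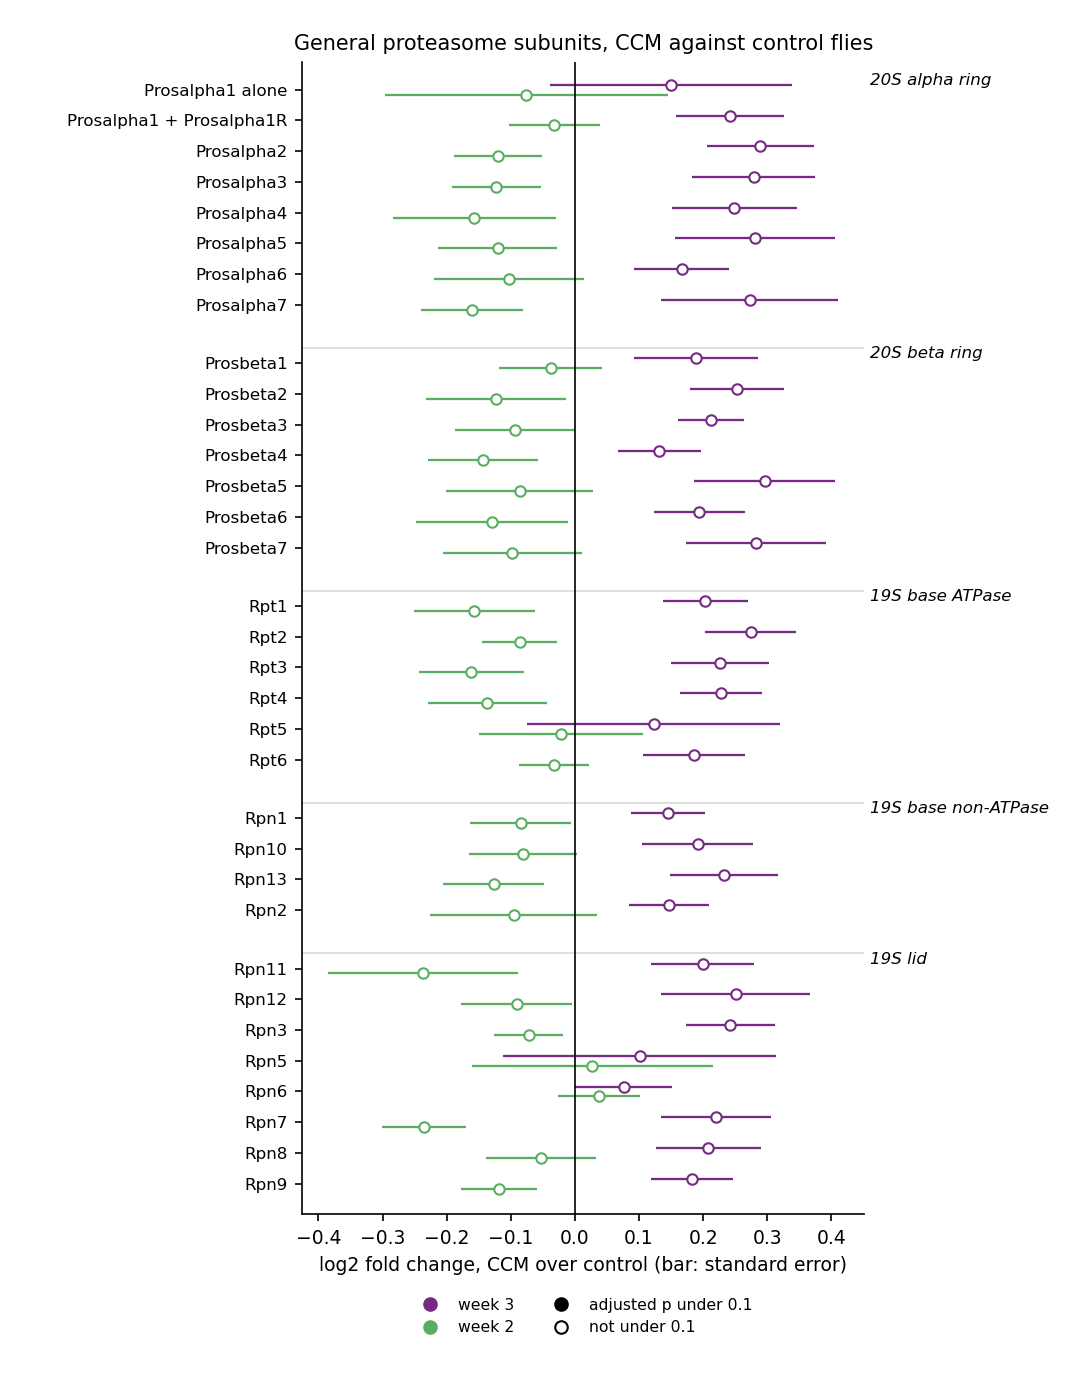
Log2FC of CCM over control flies for each general feature (points, with SE as bars), week 3 in purple above week 2 in green, all open because no adjusted p was under 0.1. The 33 points of week 3 lie to the right of 0, between 0.08 and 0.30, and 31 of the 33 points of week 2 lie to its left.

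Whether the schedules differed in the change between the weeks was tested as an interaction over all 12 samples. By edgeR 0 of the 33 features passed (0% of all features). By DESeq2 0 of the 33 passed, with 0 higher and 1 lower over all features. At an unadjusted p under 0.05 there were 19 of 33 (4.55% of all features). All 33 interaction log2FC were positive (51.3% of all features), between 0.05 and 0.47 with a median of 0.34, and the smallest adjusted p was 0.913. The 3 smallest p-values were those of Rpn7 (0.47, SE 0.11), Prosalpha2 (0.42, SE 0.11) and Rpt2 (0.37, SE 0.09), each with an edgeR adjusted p of 0.913. Rpn7 had 143, 136 and 162 CPM in CCM flies and 119, 128 and 131 CPM in control flies at week 3, beside its values at week 2 above. At week 2 Prosalpha2 had 169, 161 and 145 CPM in CCM flies, against 167, 174 and 178 CPM in control flies. Rpt2 had 140, 134 and 128 CPM in CCM flies at week 2, against 136, 142 and 152 CPM in control flies. The schedules did not overlap for any of these 3 features at week 3, and at week 2 they overlapped for Prosalpha2 and Rpt2 but not for Rpn7. The counts of 29 and 20 features that rose in CCM and control flies are therefore not shown to differ for any feature.

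The 16 paralogs were counted at far lower levels, with means of 0.431 to 5.08 CPM and 2 to 178 counts a sample. The 32 general features other than Prosalpha1 alone had means of 71.7 to 355 CPM. The lowest paralog mean was that of Prosalpha1R counted alone, with 3 to 17 counts a sample. Its other reads fall in the merged Prosalpha1 feature and cannot be split, so its level is not known. Between the weeks 0 of 15 tested in CCM flies passed and 1 of 16 in control flies fell, against 56% and 31.3% of all features that passed in either direction. The log2FC was negative in 14 of 15 paralogs in CCM flies (median -0.56) and in 16 of 16 in control flies (median -0.46), where 51.6% and 51.7% of all features were negative. With the length offsets 4 fell in CCM flies and 3 in control flies (23.8% and 13.9% of all features). DESeq2 called 2 lower in CCM flies and 1 in control flies, against 3659 and 2390 lower over all features.

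Prosalpha4T2, Rpt3R and Prosbeta5R1 had the highest means. Prosalpha4T2, a paralog of the alpha ring subunit Prosalpha4, had 5.24, 5.94 and 2.12 CPM in CCM flies at week 3, against 5.92, 5.91 and 7.67 CPM at week 2. In control flies it had 3.54, 4.82 and 2.64 CPM at week 3, against 6.47, 6.40 and 4.28 CPM at week 2. Replicate C of CCM flies at week 3 stood lowest and replicate C of CCM flies at week 2 highest.

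Rpt3R, a paralog of the ATPase Rpt3, had 6.42, 6.07 and 3.12 CPM in CCM flies at week 3, against 5.55, 5.40 and 6.57 CPM at week 2, and 3.93, 5.98 and 3.01 CPM in control flies at week 3, against 4.61, 5.26 and 3.57 CPM at week 2. Prosbeta5R1, a paralog of the chymotrypsin-like subunit, had 4.31, 5.10 and 1.73 CPM in CCM flies at week 3, against 5.88, 5.44 and 7.80 CPM at week 2, and 2.77, 5.77 and 2.58 CPM in control flies at week 3, against 6.14, 5.04 and 4.28 CPM at week 2. Among the CCM samples the same replicates were the extremes, and of these 3 paralogs Prosbeta5R1 alone did not overlap between the weeks in CCM flies.

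Prosbeta2R2, a paralog of the trypsin-like subunit, was the one called. It had 0.997, 2.22 and 1.17 CPM in control flies at week 3, against 3.40, 3.15 and 2.37 CPM at week 2. The log2FC was -1.01 (SE 0.30, edgeR adjusted p = 0.0809), and the call was lost without replicate A (-0.90) or B (-1.01) of week 2, or replicate A (-0.79) or C (-0.87) of week 3.

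Between the schedules 0 of the paralogs passed at either week. At an unadjusted p under 0.05 there were 1 of 16 at week 3 (12% of all features) and 0 of 15 at week 2 (5.67%). The log2FC was positive in 15 of 16 paralogs at week 3 (median 0.22) and in 14 of 15 at week 2 (median 0.19). Testis markers were positive in 6 of 9 at week 3 and 10 of 10 at week 2. The paralog with an unadjusted p under 0.05 was Prosalpha4T1, which had 1.47, 1.62 and 0.837 CPM in CCM flies at week 3, against 0.664, 0.636 and 0.368 CPM in control flies. The groups did not overlap, and the log2FC was 1.23 (SE 0.25, edgeR adjusted p = 0.302, blocked 0.081).

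The paralogs followed the testis markers across the samples. Their summed level was 50.1, 52.7 and 23.7 CPM in CCM flies and 32.4, 51.3 and 25.4 CPM in control flies at week 3, against 54.7, 51.7 and 68.4 CPM in CCM flies and 58.1, 55.2 and 39.1 CPM in control flies at week 2. The summed level of 10 testis marker genes was 430, 383 and 208 CPM in CCM flies and 314, 455 and 245 CPM in control flies at week 3, against 501, 490 and 753 CPM in CCM flies and 522, 472 and 439 CPM in control flies at week 2. The ratio of the sums stayed between 0.0891 and 0.138 in all 12 samples. Of 9 testis markers tested, 8 fell in CCM flies and 4 in control flies, and their part in the paralog values was not tested.

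**Figure D5:**
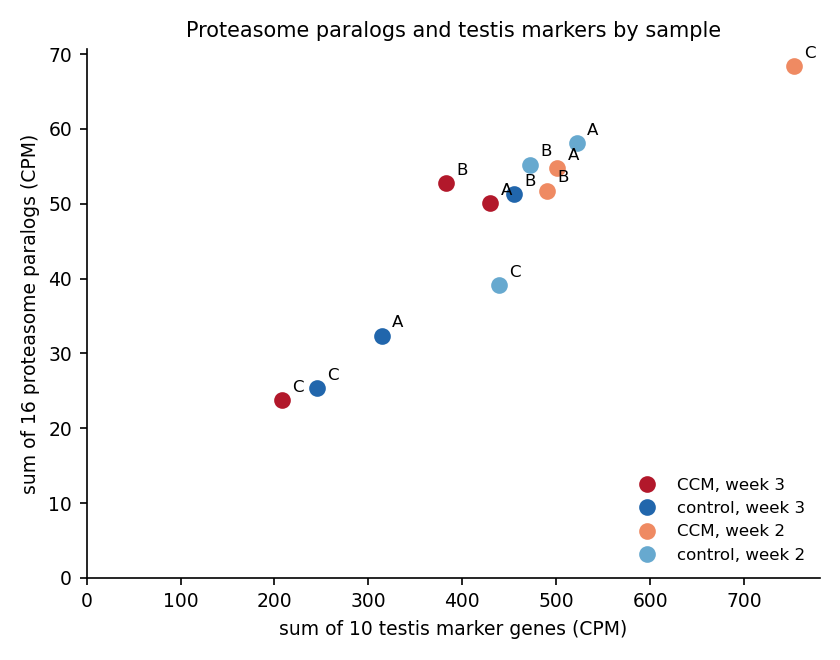
Summed CPM of the 16 paralogs (vertical axis) against the summed CPM of 10 testis marker genes (horizontal axis) in each sample, with replicate letters. Replicate C of CCM flies is the lowest point at week 3 (23.7 against 208 CPM) and the highest at week 2 (68.4 against 753 CPM).

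Genes that act with the proteasome were examined as 23 genes in 5 lists. Between the weeks 12 rose and 7 fell in CCM flies (median log2FC 0.26), and 8 rose and 5 fell in control flies (median 0.28), against 26.4% and 29.6% of all features in CCM flies and 14% and 17.3% in control flies. With the length offsets 11 rose and 5 fell in CCM flies (median 0.19), and 3 rose and 3 fell in control flies (median 0.08). Of the 23 genes, 0 passed between the schedules at either week or in the interaction. The control counts changed with the sample left out, with 0 that rose and 1 that fell without replicate A of week 2 or without replicate C of week 3. The share of all features that passed in these smaller fits is not given here.

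The list of assembly factors, activators, inhibitors and small subunits had 6 of 7 that rose under each schedule (median log2FC 0.56 in CCM flies and 0.33 in control flies). With the length offsets 6 of 7 rose in CCM flies (median 0.38) and 1 of 7 in control flies (median 0.20). Pomp, the maturation factor of the core particle, had 112, 100 and 115 CPM in CCM flies at week 3, against 74.8, 68.6 and 61.5 CPM at week 2. Control flies had 92.0, 95.6 and 106 CPM at week 3, against 64.3, 72.9 and 68.7 CPM at week 2. The weeks did not overlap, and the log2FC was 0.62 (edgeR adjusted p = 0.00236) in CCM flies and 0.51 (edgeR adjusted p = 0.0309) in control flies.

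Sem1, a small subunit of the lid, rose by 0.77 in CCM flies and 0.49 in control flies, and PI31, a regulator that binds the core, by 0.44 and 0.37. REG, the proteasome activator of the nucleus, rose by 0.26 in CCM flies and 0.28 in control flies. The F-box gene ntc, whose product is known to bind PI31 in the male germ line, did not pass.

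Ubi-p63E, a polyubiquitin gene, had 237, 158 and 184 CPM in CCM flies at week 3, against 426, 667 and 586 CPM at week 2. Its values in control flies were 237, 146 and 189 CPM at week 3, against 399, 386 and 459 CPM at week 2. It fell by 1.59 on the log2 scale (edgeR adjusted p = 0.00134) in CCM flies and by 1.12 (edgeR adjusted p = 0.027) in control flies, whichever sample was left out.

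Ubi-p5E, the other polyubiquitin gene, fell by 0.74 in CCM flies and by 0.52 in control flies, and since both consist of near-identical ubiquitin repeats the division of reads between them is uncertain. RpL40 and RpS27A, which encode ubiquitin fused to ribosomal proteins, rose by 0.40 and 0.35 in CCM flies, and had log2FC of 0.26 and 0.28 in control flies, which did not pass. With the length offsets they had 0.19 and 0.13 in CCM flies, which did not pass either. Uba1, the ubiquitin-activating enzyme, fell by 0.28 in CCM flies but had a log2FC of 0.27 with the length offsets, so that its direction is uncertain.

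Among shuttles and deubiquitinases, Usp14, which trims chains at the regulatory particle, rose by 0.50 in CCM flies, Ubqn, a shuttle factor, rose by 0.26, and rngo, a shuttle with a protease fold, fell by 0.56. In control flies rngo fell by 0.41 and the others of this list did not pass. Rad23 and Uch-L5 did not pass under either schedule. Of the cofactors of the Cdc48 segregase, which pulls ubiquitinated proteins out of complexes, p47 rose by 0.59 and Npl4 fell by 0.73 in CCM flies, with 0.31 and -0.38 in control flies.

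The transcription factor cnc had 149, 132 and 163 CPM in CCM flies at week 3, against 240, 341 and 373 CPM at week 2. The control flies had 209, 141 and 174 CPM at week 3, against 236, 222 and 367 CPM at week 2. The values at week 3 were the lower ones and did not overlap with those at week 2. It fell by 1.16 on the log2 scale (edgeR adjusted p = 0.00195) in CCM flies and by 0.65 (edgeR adjusted p = 0.0758) in control flies, but with the length offsets the log2FC turned to 0.12 and 0.08 and did not pass. Its partner maf-S rose by 0.48 in CCM flies and 0.64 in control flies, Pngl, which processes cnc-type factors in other species, fell by 0.35 in CCM flies, and the repressor Keap1 did not pass.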

How the data were processed

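RNA sequencing of 12 whole-fly samples was used. The authors mapped 150-base paired-end reads to dm6 with STAR and counted them with MMquant on the BDGP6 annotation without its non-coding genes, where reads of several genes go to a merged feature, and deposited raw counts for each feature without normalization. Fits used R 4.3.3 and edgeR 4.0.16 (filterByExpr, TMM, glmQLFit and glmQLFTest, Benjamini-Hochberg adjustment) on the 6 samples of each comparison, and on all 12 for the interaction; CPM use TMM-scaled library sizes over all 12 samples, and SE come from log2(CPM + 0.5). Groups follow the sample labels. Tables and figures were made in Python 3.11.15 (numpy 2.4.6, pandas 2.3.3, scipy 1.17.1, matplotlib 3.10.9). Positions and exonic lengths come from a later annotation of the same dm6 assembly, which holds 13025 of the 13240 single-gene features; a merged feature was given the mean length of its genes. Symbols were matched by gene identifier.

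Of 14413 features, those tested numbered 12200 to 12530 per comparison. Values of every sample were given for the 3 catalytic subunits, the 3 called members with the smallest p and those called against the majority in each comparison (the 3 smallest p where none was called), called paralogs and the 3 paralogs with the highest mean; Rpn11 between the weeks, Rpt5, Rpn2, Prosalpha4T1, Pomp, Ubi-p63E and cnc were added after their values were seen. The members and lists were chosen with earlier results of these data known. Of the listed genes, TER94, Ufd1-like, nos, vas, dec-1 and wupA were not matched to a single-gene feature and are not reported.

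Alternatives were DESeq2 1.42.0, RLE normalization, no filter, all 12 samples, single-gene features, an adjusted p under 0.05, each sample left out, the replicate letter as a block, and offsets from each sample's lowess curve (span 0.3) on log2 exonic length, with and without the block. The letters come from the sample labels; deviations of same-lettered samples from their group means correlated at 0.28 to 0.60 at week 3 in every pair, over 0.1, and were taken as paired there, and not in the other comparisons. The fits were tested on simulated data. Counting error adds most to the replicate spread for the paralogs and Prosalpha1 counted alone.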

Additional observations from a re-analysis of the deposited data

How the results depend on the processing

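Of the general subunit counts and medians, 142 values under alternatives stayed within their limits, 6 moved, 6 became weaker and 1 became stronger. At week 3 between the schedules, the replicate block moved the count called from 0 to 9. For week 3 against week 2 in control flies, the count called was 11 with length offsets and 7 with length offsets and the replicate block, against 21, and 6 to 18 with 1 sample left out, lowest without replicate A of week 2. Their median log2FC was 0.22 with the length offsets, with and without the block. In CCM flies the median was 0.51 with the length offsets, with and without the block, and 0.60 to 0.74 with 1 sample left out, and the count of 30 stayed between 29 and 31. At week 2 between the schedules the median was -0.18 to -0.047 with 1 sample left out. The block gave 14 calls in control flies and 30 in CCM flies between the weeks, 0 at week 2 and 0 in the interaction, where same-lettered samples did not all deviate together (mean correlations of 0.01, -0.25 and -0.07 for the first 3).

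Directions turned in few cases. With length offsets, alone and with the block, the log2FC was 0.058 and 0.059 for Rpn2 and 0.080 and 0.074 for cnc in control flies, and 0.12 and 0.12 for cnc and 0.27 and 0.28 for Uba1 in CCM flies between the weeks. With 1 sample left out, it was -0.10 to 0.029 for Prosbeta1 and -0.17 to 0.016 for Prosbeta5 at week 2 between the schedules, and -0.14 to 0.087 for Rpt5 between the weeks in CCM flies. Among these genes Uba1 passed with its sign turned (edgeR adjusted p = 0.0511 with length offsets, 0.111 with the block as well). The alternatives for genes that act with the proteasome were added after seeing the data. Among single genes, 798 values stayed on their side of the threshold, 122 no longer passed and 7 came to pass. The cause of these changes was not tested, beyond the smaller groups when a sample is left out. Counting error is largest for the paralogs and for Prosalpha1 counted alone.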
